A study of Homo sapiens with 14 samples.

Results

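The transcripts of 9 genes of the NRF2 pathway were followed in human cancer cell lines: NFE2L2, which encodes NRF2 itself, KEAP1, NQO1, HMOX1, GCLM, GCLC, TXNRD1, SRXN1 and SLC7A11. They were chosen by gene name. The deposited table lists 238 adenosines in these genes, of 407343 adenosines in all, and the 9 genes stand among 13744 named genes. The assay was GLORI, in which glyoxal and nitrite convert unmethylated adenosine so that it is read as G, while N6-methyladenosine (m6A) is still read as A. A site's m6A level is the percent of reads there that show A. Polyadenylated RNA came from 6 lines kept with the solvent DMSO for 24 h: the lung carcinoma line A549, the oesophageal line OE21 and, of ovarian origin, SKOV3, EFO21, COV644 and CAOV3. A further group was CAOV3 with 1 uM of STM3675 for 24 h, a compound tested in a study of METTL3 inhibition, METTL3 being the enzyme that writes most m6A in messenger RNA. Each group had 2 libraries, which makes 14. The labels do not say that the 2 came from separate cultures, so p-values measure the spread between these libraries, which may be technical. In tests of single sites this spread was pooled over all sites, and a site's own spread had no weight. Each line stands for itself alone, and no other line received STM3675.

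NRF2 is a transcription factor that the adaptor KEAP1 holds and marks for destruction under resting conditions. Oxidants and electrophiles modify KEAP1, and NRF2 then accumulates, pairs with small MAF proteins and binds antioxidant response elements in the promoters of protective genes. Those genes make glutathione, import cystine, reduce thioredoxin and quinones and degrade haem. Tumours of the lung and the oesophagus often keep the pathway switched on through mutation of KEAP1 or NFE2L2, and A549 is known to carry a KEAP1 mutation.

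The sites that the m6A results turn on are shown first, each as the 5 bases that the table gives, with T for U, in the direction of the transcript and with the measured adenosine in capitals. METTL3 prefers the motif DRACH, in which the adenosine is preceded by a purine and followed by C and then by A, C or T. Of the 10 sites of the 9 genes at 90% or more in CAOV3 with DMSO, 9 are in DRACH. The last 3 lines are sites in SLC7A11 exon 4 that are not in DRACH and differed most among the lines. Positions are on GRCh38, as deposited.
NFE2L2 chr2:177231670, last exon: gaAct
NFE2L2 chr2:177231797, last exon: gaAct
KEAP1 chr19:10491721, exon 3: ggAct
KEAP1 chr19:10486665, last exon: gaAct
KEAP1 chr19:10486582, last exon: ggAct
SRXN1 chr20:648553, last exon: ggAct
SRXN1 chr20:648372, last exon: ggAct
SRXN1 chr20:648291, last exon, outside DRACH: ggAtt
SLC7A11 chr4:138171947, last exon: ggAct
HMOX1 chr22:35393629, last exon: gaAct
SLC7A11 chr4:138223235, exon 4, base 90: tgAta
SLC7A11 chr4:138223245, exon 4, base 80: acAgc
SLC7A11 chr4:138223253, exon 4, base 72: gcAag

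The antioxidant response element was looked for in the 250 bases before the start of each gene in RefSeq's promoters (GRCh38.p14), as the core TGACNNNGC on both strands. Promoters of 7 of the 9 genes were in the table, and HMOX1 and SLC7A11 were not matched. The core was in 4 of 10 promoters of these genes, belonging to KEAP1, GCLM and TXNRD1, against 3830 of 35116 promoters (10.9%). The windows are shown in the direction of the gene with the core in capitals. A match is a description of letters and not a binding site. On the opposite strand the core reads as GCNNNGTCA.
KEAP1 chr19:10502784-10502812, minus strand: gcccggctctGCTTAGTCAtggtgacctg
KEAP1 chr19:10502807-10502835, minus strand: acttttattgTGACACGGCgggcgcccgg
GCLM chr1:93909446-93909474, minus strand: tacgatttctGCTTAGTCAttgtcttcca
TXNRD1 chr12:104215670-104215698, plus strand, first start: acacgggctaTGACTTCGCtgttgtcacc
TXNRD1 chr12:104286920-104286948, plus strand, second start: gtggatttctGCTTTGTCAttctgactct

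The listed adenosines were spread unevenly over the 9 genes. KEAP1 (ENSG00000079999, chromosome 19) had 46 sites and SLC7A11 (ENSG00000151012, chromosome 4) had 36. SRXN1 (ENSG00000271303, chromosome 20) had 34, and GCLM (ENSG00000023909, chromosome 1) had 30. NFE2L2 (ENSG00000116044, chromosome 2) and GCLC (ENSG00000001084, chromosome 6) had 26 each. NQO1 (ENSG00000181019, chromosome 16) had 18, HMOX1 (ENSG00000100292, chromosome 22) had 12 and TXNRD1 (ENSG00000198431, chromosome 12) had 10. None of these sites is shared with another gene of the table. Of the 238 sites 99 (41.6%) were in DRACH, 145 (60.9%) in the last exon, 60 (25.2%) in internal exons and 33 (13.9%) in the first exon. Over all sites of the table in named genes the shares were 53.3% for the last exon, 39.7% for internal exons and 5.05% for the first. Whether a site is in coding or untranslated sequence was not analysed here.

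A site is in the table if at least 1 DMSO library with 20 or more reads reached a level of 25%, which held for each of the 238 sites. The sites therefore begin high in some library by selection, and a site that only STM3675 raised cannot be seen. Of the 139 sites outside DRACH, 116 (83.5%) reached 25% in a single one of the 12 DMSO libraries, against 27 of the 99 DRACH sites (27.3%). At the other end, 30 DRACH sites and 1 other site reached it in all 12. SRXN1, which encodes the enzyme that repairs overoxidised peroxiredoxins, held 12 of those 31 sites, KEAP1 held 7 and NFE2L2 held 6. No site of GCLM, SLC7A11 or HMOX1 reached 25% in all 12 libraries.

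Over the whole table the libraries held between 14047302 and 28663588 reads summed over sites. The median level outside DRACH served as a rough measure of adenosine left unconverted. It was 3.33% to 4.14% in COV644 and OE21, 10.3% to 15.8% in the other DMSO libraries and 8.85% to 8.89% with STM3675. CAOV3 with DMSO was at 10.8% and 11.1%. These sites were listed through DMSO libraries alone, which can raise the values with DMSO. Some also carry m6A, since 7.87% of those tested in CAOV3 fell with STM3675. The squamous markers KRT5, KRT6A and TP63 were highest in OE21, at 4068, 3018 and 290 CPM (reads over a gene's listed sites per 1000000 of the library, after TMM scaling, means of 2). ERBB2, the gene amplified in SKOV3, was at 4073 CPM there. In A549 the alveolar genes NKX2-1 and SLC34A2 were at 0.109 and 0.0411 CPM. The ovarian markers did not share an order. PAX8 was at 80.0, 245 and 362 CPM in CAOV3, EFO21 and SKOV3 but at 22.4 CPM in COV644, where OE21 had 22.8. MSLN was highest in COV644 (1435 CPM, against 1.67 in OE21), SOX17 and EMX2 in EFO21 (200.1 and 42.5), and WT1 in A549 (8.38 CPM, against 0.0266 in CAOV3).

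With STM3675, m6A fell in 8 of the 9 transcripts of CAOV3. Tests were a logistic model of A and G reads with limma-moderated dispersion, adjusted by Benjamini-Hochberg (adjusted p under 0.05), at sites with 20 or more reads in all 4 libraries. Over all genes 81.7% fell, and 0.0624% rose, so 8 of 9 lower and 0 higher is near the background. Of 177 tested sites of the 9 genes 73 fell and 0 rose, where 35.2% of all sites fell and 0.309% rose. In DRACH 65 of 85 sites fell (76.5%, against 73.9% of all DRACH sites) and outside DRACH 8 of 92 (8.7%, against 7.87%). The median DRACH site went from 36.8% to 9.08%, and the median of all DRACH sites from 37.0% to 9.23%. Both medians with STM3675 were near the 8.85% and 8.89% found outside DRACH in those libraries, so they are not read as m6A left. All 29 DRACH sites of these genes at 50% or more with DMSO fell. The share among all DRACH sites that high was not counted, so this is not read as particular to these genes.

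**Figure D1:**
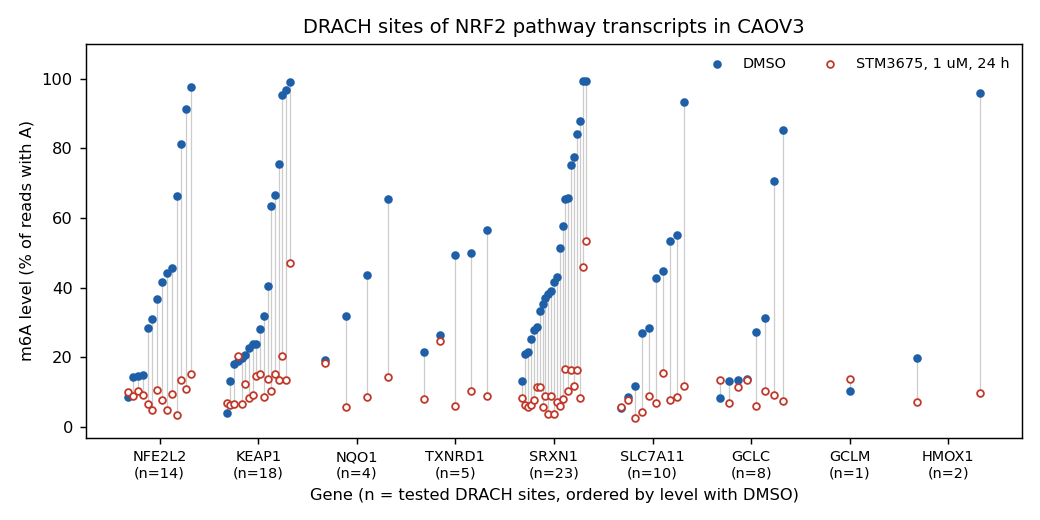
m6A level in percent of reads at each tested DRACH site of the 9 genes in CAOV3, as the mean of 2 libraries with DMSO (filled) and with STM3675 (open), joined by a line and ordered by level within a gene. Sites at 50% or more with DMSO were lower with STM3675 in every gene that had one, and 3 open points, in KEAP1 and SRXN1, lie between 45.9% and 53.3%; GCLM had 1 tested DRACH site.

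NFE2L2 carried the highest pooled level of the 9 transcripts and lost the most. Pooled over its 19 tested sites, the 2 DMSO libraries were at 58.7% and 59.2% and the 2 STM3675 libraries at 11.1% and 10.5%, a fall of 48.2 percentage points (adjusted p = 1.71e-17). The groups were far apart and the libraries of each differed by under 1 point. Its site at chr2:177231670, base 339 of the last exon, had 97.6% and 98.0% of reads as A with DMSO, from 830 and 1034 reads. With STM3675 it had 15.7% and 15.01%, from 1733 and 1472 reads. The pool weights sites by reads, and this site gave 830 of the 2052 pooled reads in the poorest DMSO library. The order of the genes without it was not computed. The neighbouring site at chr2:177231797 went from 89.8% and 92.7% to 9.93% and 12.1%, and that at chr2:177231229 from 74.5% and 88.3% to 14.6% and 12.6%. Of 14 DRACH sites of NFE2L2 10 fell.

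KEAP1, the adaptor that marks NRF2 for degradation, went from 32.7% and 34.6% to 11.6% and 11.4% over 46 sites (adjusted p = 2.37e-15), with 12 of 18 DRACH sites lower. Its highest sites had unlike values with STM3675. In the last exon, chr19:10486665 went from 96.1% and 97.3% to 15.6% and 11.4%, and chr19:10486582 from 94.6% and 96.1% to 19.2% and 21.7%. In exon 3, chr19:10491721 went from 99.5% and 98.9% to 42.8% and 51.6% (adjusted p = 2.32e-54). That site therefore kept 0.475 of its level.

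SRXN1 had the most DRACH sites, with 22 of 23 lower and a transcript level of 45.9% and 50.3% that became 13.2% and 12.3% (adjusted p = 3.1e-16). It also held the site with the highest ratio of STM3675 to DMSO among the tested sites of the 9 genes at 50% or more with DMSO: chr20:648553 had 100% and 99.0% with DMSO and 51.2% and 55.4% with STM3675. The site at chr20:648372 went from 99.4% and 99.3% to 48.0% and 43.8%. Outside DRACH, chr20:648291 went from 98.4% and 98.9% to 25.8% and 32.7%. These sites fell clearly, and the groups did not overlap at any of them. A single weaker site, chr20:647788, was at 40.0% and 38.3% with DMSO and at 12.5% and 5.17% with STM3675, a call that was lost without DMSO replicate 2 (adjusted p = 0.0624) or STM3675 replicate 2 (0.077).

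The share kept at such saturated sites was set beside all others. At the 9103 sites of the whole table at 90% or more in CAOV3 with DMSO, the ratio of STM3675 to DMSO had a median of 0.197 with quartiles of 0.144 and 0.28. The 10 sites of these genes had a median of 0.186, near that of all. SRXN1 chr20:648553 (ratio 0.536), KEAP1 chr19:10491721 (0.475) and SRXN1 chr20:648372 (0.462) were among the highest, since 3.57%, 5.42% and 6.04% of all such sites kept as much or more. At the low end were HMOX1 chr22:35393629 (0.101), NFE2L2 chr2:177231797 (0.12) and SLC7A11 chr4:138171947 (0.126). The HMOX1 and SLC7A11 sites were chosen for description after their values were seen. The unconverted adenosine is part of each value with STM3675.

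TXNRD1, GCLC, SLC7A11 and HMOX1 followed the same course, from pooled levels below those of NFE2L2 and SRXN1. Of these, TXNRD1 and GCLC began above KEAP1. TXNRD1, which encodes the reductase of thioredoxin, went from 37.8% and 40.9% to a mean of 8.55% ± 0.0702 (SD, n = 2). Its 3 best-covered high sites lie in the last exon, and chr12:104348624 among them went from 57.7% and 55.7% to 9.39% and 8.49%, on 940 to 1587 reads. The catalytic subunit of glutamate-cysteine ligase, GCLC, went from 34.9% and 36.7% to 8.79% and 9.30%. Its site chr6:53498658 had 86.0% and 84.8% with DMSO and 6.87% and 7.88% with STM3675. SLC7A11, the cystine importer, went from 27.8% and 30.8% to 8.47% and 7.36%, with 8 of 10 DRACH sites lower. HMOX1, the haem oxygenase, went from 24.9% and 31.1% to 7.46% and 8.31% (adjusted p = 1.18e-07), and 1 of its 2 tested DRACH sites fell. That site, chr22:35393629, had 93.7% and 98.0% with DMSO from 79 and 99 reads, and 10.3% and 9.14% with STM3675.

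NQO1 and GCLM had the smallest differences. NQO1, which reduces quinones, went from 24.6% and 26.7% to 12.5% and 12.9% (adjusted p = 1.33e-10). In its last exon chr16:69710569 went from 66.2% and 65.1% to 13.5% and 15.2%. GCLM, the modifier subunit of glutamate-cysteine ligase, was at 10.6% and 12.3% with DMSO and at 11.7% and 10.9% with STM3675, and the groups overlapped (adjusted p = 0.965). Only 1 of its 13 tested sites was in DRACH, and its DMSO level was close to the 10.8% and 11.1% measured outside DRACH over the whole table. The difference between the subunits GCLC and GCLM was not tested.

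By position, 53 of the 65 tested DRACH sites in last exons fell (81.5%, against 81.7% of all), from a mean of 47.1% to 10.7%. Internal exons had 8 of 12 lower (66.7%, against 56.6% of all), from 34.2% to 14.8%, and first exons 4 of 8 (50%, against 55.5%), from 25.2% to 10.8%. Of the 20 DRACH sites not called, the highest had 26.4% with DMSO, and their median count in the poorest library was 49 reads against 128 at the called sites. Among DRACH sites that reached 25% in no CAOV3 DMSO library and were listed through another line, 5 of 19 fell (18.4% of all such sites did), with medians of 13.3% and 8.43%. The other 66 DRACH sites had 60 lower, with medians of 43.9% and 9.23%, and the share for all such sites was not counted separately. The split uses the CAOV3 DMSO levels that also enter the test, so these sets are not compared.

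Of 43 tested genes in a wider list of 47 pathway genes, m6A fell in 24 and rose in 1, where 81.7% of all genes fell. The falls covered all 10 regulators and partners of NRF2, 4 of 9 glutathione and thioredoxin genes, 3 of 6 NADPH genes, 5 of 13 detoxification genes and 2 of 5 haem and iron genes. The list had a median difference of -8.45 points where all genes had -20.1. CUL3, the ubiquitin ligase scaffold that works with KEAP1, went from 80.3% ± 2.54 to 10.7% ± 0.411 (SD, n = 2 libraries). SLC3A2, the partner chain of SLC7A11, went from 60.2% ± 0.819 to 10.4% ± 0.289, and FECH, which puts iron into haem, from 50.9% ± 0.114 to 8.66% ± 2.82. The gene that rose was FTL, ferritin light chain, from 18.7% ± 3.27 to 26.0% ± 1.54 over 3 sites of which 0 are in DRACH. FTL shares sequence with pseudogenes, so its reads are uncertain.

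Among the 6 lines with DMSO, 47 sites of the 9 genes differed, and the widest range was at a site in SLC7A11. Sites with 20 or more reads in all 12 libraries could be tested, which were 93 sites in 8 of the genes and none in HMOX1. The 47 called are to be read against 39.5% of all sites. In DRACH 25 of 59 were called (39.1% of all) and outside it 22 of 34 (40% of all). At 17 of the 22 both COV644 and OE21 had lower means than each other line, as they had for the median level outside DRACH given above. The part of unconverted adenosine in these calls was not tested. At 3 of the 22, those in SLC7A11 exon 4, both had higher means than each other line. The model gave every site the same dispersion, so a site with unlike libraries can be called. An example is GCLM chr1:93885562, with 2.63% and 38.3% in SKOV3 (adjusted p = 0.000143 in the logistic model). With limma on arcsine square roots of the levels 4 of the 93 were called (0.945% of all sites), and on levels corrected for unconverted adenosine 5 (3.18% of all). All of these 4 and 5 sites are in SLC7A11, and the 3 sites in exon 4 are in both sets.

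NFE2L2 at chr2:177231670 ranged from 97.0% to 98.8% over the 12 libraries, on at least 639 reads in each of the 14. KEAP1 at chr19:10491721 ranged from 95.9% in OE21 to 100% in SKOV3, and SRXN1 at chr20:648553 from 97.8% to 100%. Of these genes 8 sites had a mean of 90% or more over the 12 libraries with 20 or more reads throughout, and they were in NFE2L2, KEAP1 and SRXN1. The model called none of the 8 different among lines. Every DMSO library had a level of 86.1% or more at each of them, so there was little room to differ, and the missing calls do not show that the levels were equal. Of the 8, KEAP1 chr19:10491721 was called at a minimum of 50 reads (adjusted p = 0.0497) and without EFO21 replicate 2 (0.0473), and NFE2L2 chr2:177231797 without SKOV3 replicate 1 (0.0253). SRXN1 chr20:648291 was called without A549 replicate 2 (0.0325), COV644 replicate 2 (0.018) or SKOV3 replicate 1 (0.032).

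The site that differed most was in SLC7A11 exon 4. At chr4:138223245 COV644 had 57.0% and 61.8% of reads as A and OE21 had 30.1% and 28.2%. A549 had 3.44% and 5.32%, CAOV3 had 6.74% and 8.79%, and SKOV3 had 6.03% and 6.36%. EFO21 had 2.92% and 17.4%. COV644 and OE21 were thus above the other lines in both libraries, with a range of line means of 55.0 points (adjusted p = 1.26e-39). The sites at chr4:138223253 and chr4:138223235 had the same order at the top, with 57.8% and 60.0%, and with 56.3% and 61.0%, in COV644, and with 33.5% and 28.3%, and with 31.7% and 27.3%, in OE21. The 3 sites lie within 19 bases, so that a read can cover them all, and none is in DRACH. Whether the A reads there are m6A was not tested, so the values are shares of A reads only. With STM3675 in CAOV3 none was called, with 6.00% and 3.80% at chr4:138223245.

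Elsewhere SLC7A11 differed in another order. At chr4:138179324, in exon 11 and in DRACH, CAOV3 had 50.8% and 55.9% and OE21 had 19.1% and 14.8%, the lowest of the lines. A549 had 35.0% and 30.8%, EFO21 had 42.6% and 38.0%, SKOV3 had 36.0% and 35.5%, and COV644 had 55.9% and 41.4% (adjusted p = 4.59e-17). SRXN1 at chr20:647788 had 40.0% and 38.3% in CAOV3, 25.1% and 26.6% in A549, 27.6% and 14.8% in EFO21 and between 4.20% and 16.2% in the other lines (adjusted p = 7.4e-08). CAOV3 was above each other library at this SRXN1 site. GCLC at chr6:53498721 had 69.7% and 71.7% in CAOV3, 60.0% and 78.6% in COV644 and 69.8% and 64.2% in SKOV3, against 43.6% and 47.2% in A549, 43.2% and 48.4% in EFO21 and 41.7% and 54.6% in OE21 (adjusted p = 3.51e-08 among the lines). There the libraries of CAOV3, COV644 and SKOV3 lay above those of the other lines.

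**Figure D2:**
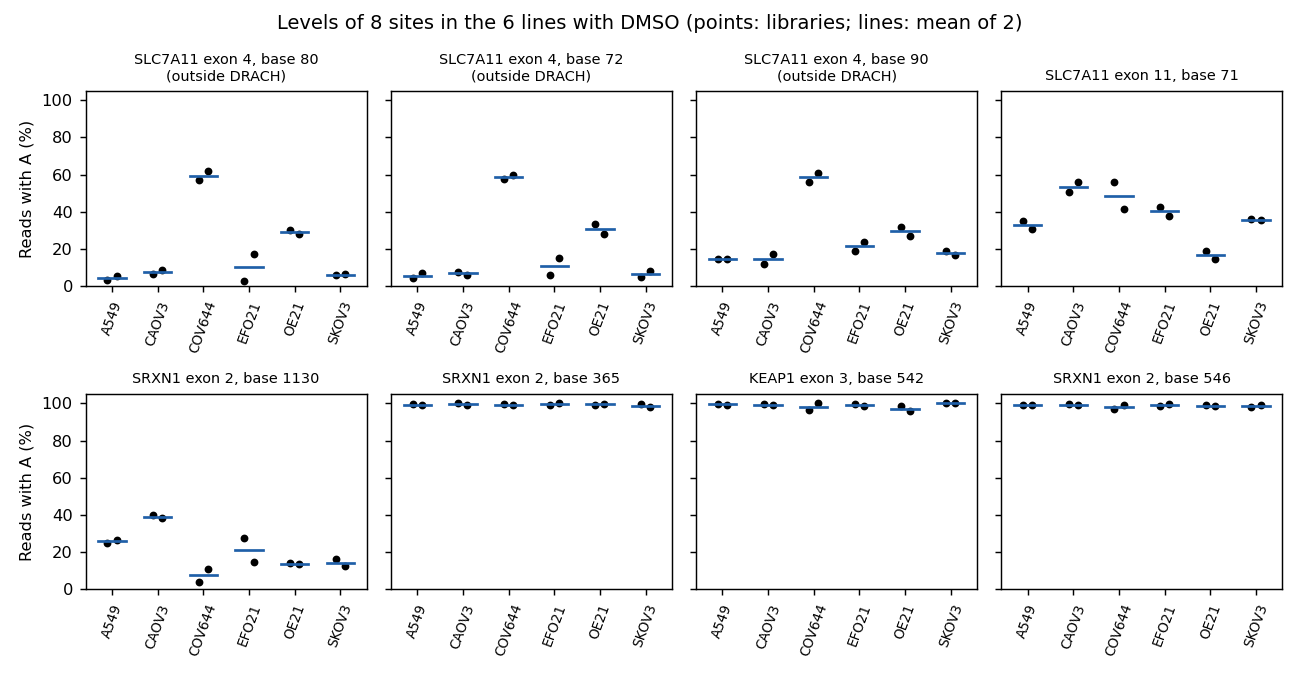
Percent of reads with A at 8 sites in the 6 lines with DMSO, as the 2 libraries (points) and their mean (line), with the exon and the base counted from the exon's start. The 3 SLC7A11 sites in exon 4 stand near 59% in COV644 and near 30% in OE21, and the SRXN1 sites at bases 365 and 546 and the KEAP1 site (exon 3) are at 95.9% or more in all libraries.

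Pooled over tested sites, 7 of 8 genes differed among lines, where 62.5% of all genes did. SRXN1 was not called, with line means between 45.4% and 49.6% (adjusted p = 0.244), but was called at a minimum of 50 reads (0.0489) and without OE21 replicate 2 (0.00245). SLC7A11 had the widest range, with 42.9% ± 1.49 in COV644, 30.3% ± 1.90 in CAOV3 and between 19.7% and 21.3% in the other 4 lines (adjusted p = 7.47e-06). It was pooled over 8 sites, 3 of which are those of exon 4. On its 4 DRACH sites alone the order was another one: CAOV3 led with 40.9% ± 5.08 (SD, n = 2 libraries, as throughout), COV644 had 32.1% ± 4.66 and OE21 was lowest with 16.4% ± 0.0212, a range of 24.4 points rather than 23.2. GCLM, with 0 DRACH sites among 9, was at 2.18% ± 0.0167 in OE21, 3.10% ± 0.617 in COV644 and between 7.09% and 13.9% in the others. The median level outside DRACH was also lowest in OE21 and COV644, and the part of unconverted adenosine in the GCLM values was not tested. NFE2L2 was between 62.5% in OE21 and 71.1% in EFO21, and KEAP1 between 39.3% in CAOV3 and 49.4% in EFO21. Of the other pathway genes 30 of 37 were called. The count was 18 at a minimum of 50 reads, which leaves fewer sites to test, and 10 with limma on corrected levels, which called 3 of the 8 genes.

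Reads over the listed sites gave a second measure, the coverage of each transcript. It sums A and G reads over a gene's sites and counts a read once for each site it covers. It is thus relative, and fewer cells of a kind cannot be told apart from less RNA per cell. Tests used edgeR's quasi-likelihood model with Benjamini-Hochberg adjustment. Divided by the number of listed sites, the most covered of the 9 in CAOV3 with DMSO was TXNRD1, at 25.8 CPM, and the least was GCLM, at 1.68.

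All 9 transcripts differed in coverage among the lines, as did 99.1% of all genes. HMOX1 had the widest spread. It had 102 and 114 CPM in A549, 24.6 and 27.1 in CAOV3, 12.8 and 16.7 in OE21 and 14.1 in both libraries of SKOV3. COV644 had 4.80 and 5.38 CPM and EFO21 had 5.28 and 4.03. A549 was above all others, at 23.2 times EFO21, while OE21 could not be separated from SKOV3, nor COV644 from EFO21, by their libraries.

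SRXN1 was highest in OE21, with 2307 and 2665 CPM. A549 followed with 1298 and 1396 CPM, and the other 4 lines lay between 161 and 343, with the lowest values in EFO21. OE21 had 15.4 times the mean of EFO21, and no library of the other 4 lines reached A549.

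TXNRD1 had 723 and 728 CPM in A549, 274 and 277 in OE21, 233 and 282 in CAOV3, 234 and 237 in SKOV3, 148 and 178 in COV644 and 61.3 and 64.5 in EFO21. NQO1 had 418 and 456 CPM in A549 and 236 and 265 in OE21, then 179 and 206 in CAOV3 and 192 and 184 in SKOV3. COV644 had 58.6 and 52.0 CPM of NQO1 and EFO21 had 45.9 and 39.9. Both genes were highest in A549 and lowest in EFO21. Of neighbours in the order, CAOV3 and SKOV3 overlapped for both genes, and OE21 and CAOV3 also for TXNRD1.

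The glutathione genes split the lines in other ways. GCLC fell into a high set, A549 (197 and 193 CPM), OE21 (204 and 170) and CAOV3 (185 and 169), and a low set, SKOV3 (48.6 and 58.7), COV644 (41.0 and 39.6) and EFO21 (37.8 and 41.2). The lines of the high set overlapped with their neighbours. GCLM was highest in OE21 (183 and 127 CPM), then A549 (94.0 and 81.9), EFO21 (76.3 and 74.6), COV644 (70.9 and 63.7), CAOV3 (53.3 and 47.3) and SKOV3 (28.5 and 31.2), with no overlap of neighbours. SLC7A11 was highest in SKOV3 (295 and 310 CPM) and A549 (330 and 245), which overlapped, then in OE21 (219 and 191), EFO21 (114 and 111), CAOV3 (99.6 and 85.4) and COV644 (55.3 and 37.2). SKOV3 thus held the highest SLC7A11 and the lowest GCLM.

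The regulators went another way. NFE2L2 was highest in COV644 (551 and 436 CPM), at 3.78 times OE21 (150 and 111). SKOV3 (221 and 262) and EFO21 (218 and 248) overlapped, as did A549 (146 and 135) with CAOV3 (116 and 146) and CAOV3 with OE21. KEAP1 was highest in EFO21 (298 and 249 CPM) and lowest in COV644 (112 and 116), with CAOV3 (244 and 248) and OE21 (230 and 246) overlapping and A549 (147 and 163) overlapping with SKOV3 (168 and 140).

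**Figure D3:**
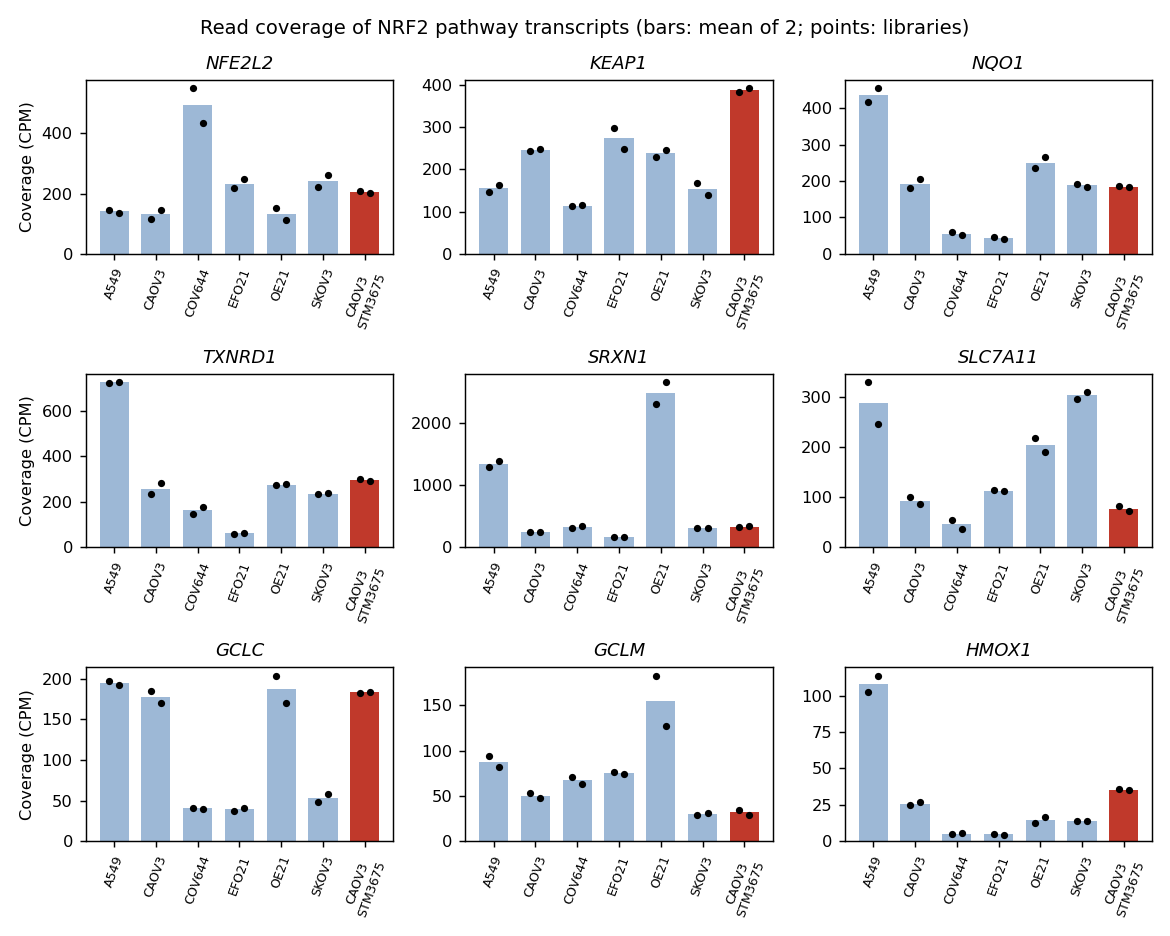
Coverage in CPM of the 9 transcripts in the 6 lines with DMSO and in CAOV3 with STM3675 (red), as the mean of 2 libraries (bars) and each library (points), each axis starting at 0. HMOX1, NQO1 and TXNRD1 are highest in A549, SRXN1 and GCLM in OE21, and NFE2L2 in COV644.

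Each line was then set against the mean of the other 5. In A549, 7 of the 9 transcripts were higher (background 37.2%) and 2 lower (32%). On the log2 scale HMOX1 was higher by 3.36 (SE 0.101), TXNRD1 by 2.04 (SE 0.0750), NQO1 by 1.91 (SE 0.0751), SRXN1 by 1.75 (SE 0.0702), GCLC by 1.33 (SE 0.0818), SLC7A11 by 1.21 (SE 0.117) and GCLM by 0.43 (SE 0.112), with the largest edgeR-adjusted p at 0.00327. The regulators were the lower ones, NFE2L2 at -0.62 (SE 0.130) and KEAP1 at -0.33 (SE 0.0896). The GCLM call was lost without A549 replicate 1, at 0.33 (adjusted p = 0.0878). The KEAP1 call was lost without that library and on sites outside DRACH alone, which left 1 lower in each case.

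OE21 had 7 higher (background 39.1%) and 1 lower (35.9%). SRXN1 led by 2.81 (SE 0.0669), followed by GCLM at 1.41 (SE 0.105), GCLC at 1.26 (SE 0.0827) and NQO1 at 0.94 (SE 0.0801). NFE2L2 was lower, at -0.75 (SE 0.132), and HMOX1 was not called, at -0.09 (SE 0.131). A549 and OE21 thus both had the transcript of NRF2 below and most transcripts of its targets above the mean of the other lines. KEAP1 was lower in A549 but higher in OE21, at 0.41 (SE 0.0849). CAOV3 also had NFE2L2 lower, at -0.74 (SE 0.132). There NQO1, HMOX1, GCLC and TXNRD1 were called higher, and GCLM, SRXN1 and SLC7A11 lower. The TXNRD1 call was lost without CAOV3 replicate 2, and that of NQO1 on sites outside DRACH. These contrasts share libraries, since each line serves in the mean for the others.

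COV644 and EFO21 stood at the other end. COV644 had 1 higher (background 39.6%), NFE2L2 at 1.55 (SE 0.111), and 7 lower (35.1%), with SLC7A11 at -1.96 (SE 0.151), HMOX1 at -1.93 (SE 0.156) and NQO1 at -1.67 (SE 0.0989). EFO21 had 1 higher (38.5%), KEAP1 at 0.65 (SE 0.0835), and 6 lower (33.7%), with TXNRD1 at -2.20 (SE 0.104), NQO1 at -2.11 (SE 0.103), HMOX1 at -2.07 (SE 0.161) and SRXN1 at -1.92 (SE 0.0927). The count higher in EFO21 was 2 without COV644 replicate 1 and 3 without OE21 replicate 1. CAOV3 had 5 higher (39.8%) and 4 lower (34.1%), with GCLC at 1.17 (SE 0.0830) and SRXN1 at -1.18 (SE 0.0871) at the ends. SKOV3 had 3 higher (38.2%) and 4 lower (32.5%), from SLC7A11 at 1.30 (SE 0.117) to GCLM at -1.44 (SE 0.132), and 1 higher when only sites outside DRACH were summed. The NFE2L2 call in SKOV3 (0.31, SE 0.121) was lost without SKOV3 replicate 2, A549 replicate 2, CAOV3 replicate 1 or EFO21 replicate 1, and that of SLC7A11 in EFO21 without either EFO21 library.

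**Figure D4:**
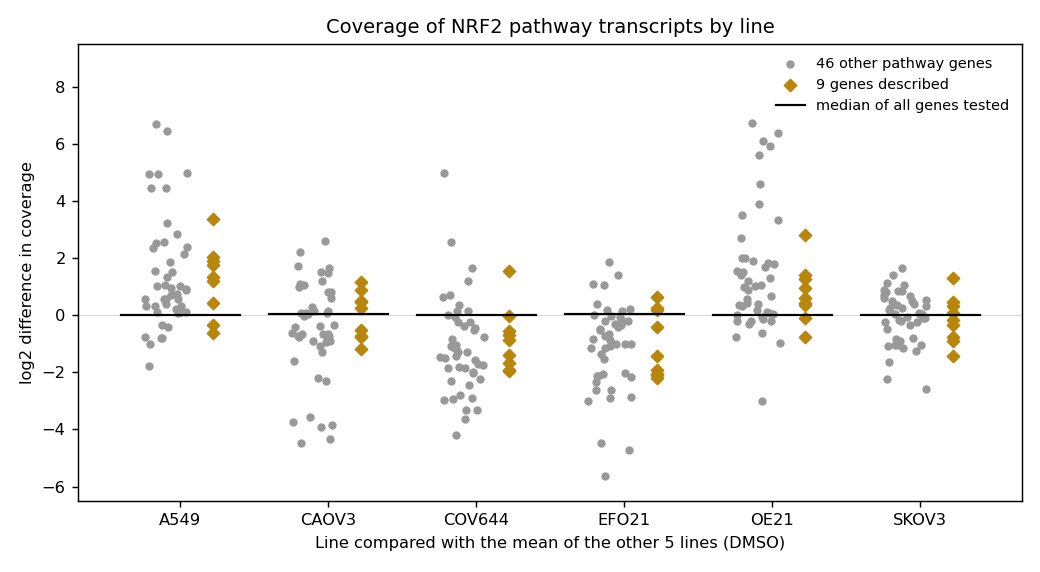
Difference in coverage (log2) of each line from the mean of the other 5, for the 9 genes (diamonds) and 46 other pathway genes (grey), with the median of all genes tested (line). Most pathway genes lie above the line in A549 and OE21 and below it in COV644 and EFO21; NFE2L2 is the 1 diamond above it in COV644.

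The wider list is given beside the 9, with no test between the lists. Of 46 other pathway genes 34 were higher and 7 lower in A549, and 31 higher and 4 lower in OE21. COV644 had 7 higher and 33 lower, EFO21 had 5 and 31, CAOV3 had 13 and 25, where the 9 had more higher than lower, and SKOV3 had 17 and 17. The list's median was 0.90 in A549, 1.00 in OE21, -1.29 in COV644, -0.85 in EFO21 and -0.41 in CAOV3 (0.25 for the 9), with medians of all genes between -0.0048 and 0.0412 in the 6 contrasts. Of the detoxification and transport genes 14 of 15 were higher and 0 lower in both A549 and OE21, and 0 were higher and 15 lower in COV644. Of the NADPH and pentose phosphate genes 6 of 6 were higher in A549 and 5 in OE21. All 5 haem and iron genes were lower in COV644. The regulators and partners were mixed, with 4 of 10 higher and 5 lower in A549.

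AKR1B10, an aldo-keto reductase, had 589 CPM in A549 and 490 in OE21, against 0.882 to 3.42 in the other lines. ABCC2, an export pump for conjugates, had 1009 CPM in A549 and 166 in OE21. ALDH3A1, an aldehyde dehydrogenase, had 1726 CPM in OE21 and 888 in A549, and GPX2, a glutathione peroxidase, 1116 and 405. AKR1C2 had 2549 CPM in OE21 and 1476 in A549, but shares sequence with AKR1C1 and AKR1C3, so that their reads may be split. Among genes lower in A549 were GSTM3 (14.5 CPM), MAFF (16.3) and BACH1 (77.4), the last a repressor that competes with NRF2 for the same elements. GLRX (2.60 CPM), MAFF (16.7) and CUL3 (65.1) were the lowest against the other lines in OE21.

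COV644 was led by partners of NRF2. MAFK, a small MAF protein that pairs with NRF2 or BACH1, had 3089 CPM there against 38.9 to 317 in the other lines, a difference of 4.97 (SE 0.0768). MAFF was higher by 2.56 (SE 0.0772) and BTRC, a receptor of another ubiquitin ligase for NRF2, by 1.64 (SE 0.0735). In CAOV3 RBX1 (2.61, SE 0.146), SQSTM1 (2.20, SE 0.171) and MAFF (1.72, SE 0.0809) led, and in EFO21 PIR (1.86, SE 0.151), IDH1 (1.40, SE 0.0764) and BACH1 (1.09, SE 0.0990). SKOV3 was led by FTH1 (1.65, SE 0.0865), AKR1C1 (1.41, SE 0.119) and FECH (1.13, SE 0.0791), the first 2 of which have uncertain reads. SQSTM1 encodes p62, which sequesters KEAP1.

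Across the 6 line means of log2(CPM + 0.5), a description over 6 points that share depth and libraries, NQO1 ran with TXNRD1 (r = 0.925) and HMOX1 (0.906), and HMOX1 with TXNRD1 (0.914). NFE2L2 had an r below 0 with each of the other 8, from -0.323 (GCLM) to -0.876 (GCLC). Of 13703 genes the closest in pattern were HMGCS1 for NFE2L2 (r = 0.994), DDX49 for KEAP1 (0.981), CACNA2D1 for NQO1 (0.988), SUV39H1 for HMOX1 (0.999) and MARCHF9 for GCLM (0.994). For GCLC it was HNRNPC (0.998), for TXNRD1 RPS19 (0.989), for SRXN1 RUVBL1 (0.996) and for SLC7A11 MDH1B (0.997). Of the 27 genes closest to the 9, 3 for each, none was another of the 9 or on the wider list. With 6 points and so many genes, values this high are found for many patterns.

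With STM3675 in CAOV3, coverage rose for 4 of the 9 transcripts and fell for 2, where 27% of all genes rose and 25.7% fell. KEAP1 rose most. It had 244 and 248 CPM with DMSO and 384 and 393 with STM3675. NFE2L2 had 116 and 146, then 207 and 203. The groups did not overlap for either. The log2 differences were 0.67 (SE 0.0673, edgeR-adjusted p = 2.66e-05) and 0.65 (SE 0.103, edgeR-adjusted p = 0.000487). SRXN1 rose from 249 and 246 CPM to 336 and 337, by 0.45 (SE 0.0664, edgeR-adjusted p = 0.000327), and HMOX1 from 24.6 and 27.1 to 35.5 and 35.0, by 0.46 (SE 0.103, edgeR-adjusted p = 0.00415).

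GCLM fell from 53.3 and 47.3 CPM to 34.8 and 28.8, by 0.65 on the log2 scale, as large in size as the rise of NFE2L2 (SE 0.112, edgeR-adjusted p = 0.000801). SLC7A11 had 99.6 and 85.4 CPM, then 81.7 and 73.1, a difference of -0.25 (SE 0.0935, edgeR-adjusted p = 0.045). GCLC (0.05, SE 0.0730), NQO1 (-0.06, SE 0.0816) and TXNRD1 (0.22, SE 0.0917) were not called, and each of them changed sign under some setting. TXNRD1 was called higher without CAOV3 DMSO replicate 2, at 0.37 (edgeR-adjusted p = 2.49e-09), and NQO1 lower without replicate 1, at -0.15 (edgeR-adjusted p = 0.0229). The SLC7A11 call was lost with DESeq2 (adjusted p = 0.0696) and without CAOV3 DMSO replicate 1 (0.108) or STM3675 replicate 1 (0.108) or 2 (0.378). HMOX1 was not called without STM3675 replicate 1 (adjusted p = 0.0611) or 2 (0.0521). When limma was run on the median reads per site, 2 of the 4 rises held their call, and NFE2L2 (adjusted p = 0.0532) and HMOX1 (0.68) did not. NFE2L2 had the largest fall in pooled m6A and GCLM none, and no relation of m6A with coverage was tested over these 9 genes.

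Among the other pathway genes 14 of 46 rose and 12 fell, with a median of -0.05 against -0.01 for all genes. Without STM3675 replicate 1 the counts were 9 and 4, without replicate 2 they were 7 and 3, and with limma on median reads 3 and 5; with library totals 19 fell. The detoxification genes had 9 of 15 higher and 1 lower, and the haem and iron genes 0 of 5 higher and 4 lower. The largest rise was in GPX2, from 1.86 to 7.51 CPM (2.01, SE 0.293), both low levels. SLC3A2 rose from 414 to 890 CPM (1.11, SE 0.0744, edgeR-adjusted p = 2.14e-06) while its partner SLC7A11 did not rise, and AKR1B10 from 1.57 to 3.35 CPM. RBX1, the RING subunit that works with CUL3 (-0.63, SE 0.0915), PIR (-0.60, SE 0.216) and TXN, thioredoxin (-0.59, SE 0.148), fell most.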

How the data were processed

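GLORI libraries of polyadenylated RNA were made by the authors. Per the submitters' processing notes, cutadapt, STAR and the build GRCh38 were used, with roles and versions that were not given in the sources used here. For each site and library, the authors' deposited table gives the count of reads with A or G and the fraction of them that are A. Fraction times count gave whole A reads within 1e-06 at every site. The 8 columns of per-sample means and maxima were not used. Each of 407343 sites was tested once, after 1170 extra gene rows were set aside for site tests. The highest count was 10040, which no site of the 9 genes reached. The table is filtered, per the values, to sites where a DMSO library of 20 or more reads reached 25%.

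The 9 genes and the gene lists were chosen with earlier results of these data known. Every model was fitted over the whole table, and p-values were adjusted over all features tested. Site and gene levels used a quasi-binomial logistic model of A and G counts, with Pearson dispersion moderated by limma 3.58.1 (squeezeVar) and floored at 1, at sites with 20 or more reads in each library compared. The moderation gave every site the same dispersion, 1.671 in CAOV3 and 1.714 among the lines, with no weight for a site's own spread. Coverage used edgeR 4.0.16 (TMM, filterByExpr, glmQLFit, glmQLFTest) in R 4.3.3. Log2 differences, SE and CPM come from these fits or counts. The named sites were, per gene, up to 3 with the highest mean over the 12 DMSO libraries and 20 reads in all 14, the 3 with the highest STM3675 to DMSO ratio among sites at 50% or more, and the 5 with the widest range among lines. Other pathway genes were named as the 3 largest called differences in each direction.

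Alternatives were minimum reads of 10 and 50, limma on levels, DRACH sites only, sites outside DRACH only, DESeq2 1.42.0, no filter, library totals, median reads per site, a replicate block and leaving out each library. Tested on simulated data, the site model in CAOV3 recovered 13% of halved and 34% of quartered levels, with 0 false calls among 185923. That of the 6 lines recovered 69% and 86%, with 9 false calls among 68873. The changed sites were drawn at any depth from sites above a minimum level, so recovery at the lowest levels was not measured. The coverage model recovered 95% of 2-fold and 100% of 4-fold changes in CAOV3, and 86% and 99% for the lines. Between replicate libraries the chi-square of the summed reads was 3.63 to 20 per degree of freedom. A read counts once for each site it covers, which by itself raises such values. They therefore cannot show a spread beyond sampling noise.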

Additional observations from a re-analysis of the deposited data

How the results depend on the processing

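In CAOV3 the counts of sites and genes of the 9 with lower m6A with STM3675 stayed within 1.5 times under every alternative run. In CAOV3 deviations of same-numbered libraries had r = -0.0117 for m6A and 0.00503 for coverage. Sampling of reads can hide a relation in m6A, and each measure gave a single r. Whether replicate numbers pair the libraries was therefore not settled. Between the lines with DMSO, over 15 pairs of lines, r ranged from -0.0309 to 0.016 for m6A. For coverage it ranged from -0.642 to 0.655, so replicate differences in coverage were not unrelated between lines. With a replicate block 58 sites fell rather than 73, 45 sites differed among lines rather than 47, and 5 transcripts rose in coverage rather than 4, TXNRD1 being the added one (0.22). The block changed no other count by over 1.5 times.

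Among lines, 47 of 93 tested sites became 28 of 49 at a minimum of 50 reads, which leaves fewer sites to test. They became 4 of 93 with limma on arcsine square roots and 5 of 93 with limma on corrected levels, where 7 genes became 3. In coverage with STM3675, 2 transcripts lower became 1 with DESeq2 and 1 without either STM3675 library (leaving out each library gave 1 to 2), and 4 higher became 2 with limma on median reads per site. On sites outside DRACH A549 had 1 lower and SKOV3 had 1 higher; leaving out each library gave 1 to 2 lower in A549 and 1 to 3 higher in EFO21. Of the other pathway genes, 4 lower in OE21 became 7 with library totals. The cause was not tested.

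Differences that were not called changed sign. GCLM m6A (-0.187 points) became 2.71 at 50 reads, 3.36 on DRACH sites and ranged from -1.08 to 0.915 when each library was left out, and SLC7A11 chr4:138223253 (-0.52) ranged from -1.36 to 0.317. In log2 coverage with STM3675, GCLC became -0.0815 with library totals, -0.0226 with limma and -0.0035 to 0.12 with each library left out. NQO1 became 0.0961 outside DRACH and -0.148 to 0.0526 with each library left out, and TXNRD1 -0.0253 and -0.0483 outside DRACH and with limma, and 0.0876 to 0.367 with each library left out. With each library left out, GCLM in COV644 ranged from -0.112 to 0.043 and HMOX1 in OE21 from -0.297 to 0.0933.

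Depth limits HMOX1, where no site had 20 reads in all 12 DMSO libraries, and weak DRACH sites. With 2 libraries a group, no relation across samples was tested.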
